A study of Mus musculus with 21 samples.

Results

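Aquaporins are channel proteins of cell membranes. The 5 genes described here, Aqp1, Aqp3, Aqp5, Aqp8 and Aqp11, were taken by gene symbol out of the 12 aquaporin family genes and the 43438 gene IDs in the deposited tables. They were picked because earlier results of the same libraries showed their levels differing among the groups, so their levels and differences are descriptions and carry no test.

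The series follows chemical reprogramming, in which fibroblasts are turned into pluripotent cells by small molecules instead of added genes. RNA-seq was done on 21 mouse libraries in 10 groups, and the deposited unit is FPKM, which scales fragments to transcript length and to library size. Intermediate cells were collected at day 12, day 20, day 26 and day 28 (1 library each) and at day 16 (2 libraries). The other groups were 2 kinds of extraembryonic endoderm (XEN) cells, CeXEN and eXEN (2 libraries each), chemically induced pluripotent stem cells (CiPSC, 7 lines), embryonic stem cells (ESC, 2 libraries) and the starting mouse embryonic fibroblasts (MEF, 2 libraries).

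Intermediate cells, CiPSC, MEF and ESC replicate 1 carried the reporter background C57BL/6J-Tg(GOFGFP)11Imeg/RbrcxICR, and ESC replicate 2 was C57BL/6 (B6)N. Both kinds of XEN cells were wild-type ICR, so strain and cell type cannot be told apart where XEN cells are set against any other group. CeXEN cells had been derived from E3.5 embryos in stage 1 reprogramming medium (VC6TFAE with 20 ng/ml bFGF). Both eXEN libraries are of 1 established line. Its replicate 1 grew in stage 1 medium (VC6TF with bFGF at 20 ng/ml), whereas a traditional XEN medium was used for its replicate 2, so medium and replicate cannot be told apart there. MEF came from E13.5 embryos, ESC from E3.5 embryos, and each CiPSC library is 1 line. Nothing in the labels ties replicates to separate cultures, and p-values measure only the spread between these libraries, which may be technical.

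Aquaporins let water cross membranes along osmotic gradients. Orthodox aquaporins such as Aqp1 and Aqp5 pass water, aquaglyceroporins such as Aqp3 also pass glycerol, Aqp8 passes water, ammonia and hydrogen peroxide, and Aqp11 is an unorthodox member held mainly in membranes inside the cell. In the mouse preimplantation embryo, aquaporins of the trophectoderm take part in moving water into the blastocyst cavity. XEN cells are culture forms of primitive endoderm, the other extraembryonic lineage of the blastocyst.

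The promoters of Aqp8 and Aqp3 are shown because these genes led the summed aquaporin mRNA of different cell states, Aqp8 in intermediate and XEN cells and Aqp3 in pluripotent cells. Each is the RefSeq sequence of build GRCm38.p6, 300 bases with 250 before and 50 from the annotated start. Aqp8 is at chr7:123462044-123462343 on the plus strand, and Aqp3 at chr4:41098134-41098433 on the minus strand. Capitals mark a TATA box match.
Aqp8 promoter: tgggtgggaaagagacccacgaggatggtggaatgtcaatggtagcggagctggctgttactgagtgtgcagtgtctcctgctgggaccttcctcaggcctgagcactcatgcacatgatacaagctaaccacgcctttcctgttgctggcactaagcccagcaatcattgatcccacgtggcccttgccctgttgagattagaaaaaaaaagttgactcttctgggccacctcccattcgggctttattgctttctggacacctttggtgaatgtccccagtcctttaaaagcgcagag
Aqp3 promoter: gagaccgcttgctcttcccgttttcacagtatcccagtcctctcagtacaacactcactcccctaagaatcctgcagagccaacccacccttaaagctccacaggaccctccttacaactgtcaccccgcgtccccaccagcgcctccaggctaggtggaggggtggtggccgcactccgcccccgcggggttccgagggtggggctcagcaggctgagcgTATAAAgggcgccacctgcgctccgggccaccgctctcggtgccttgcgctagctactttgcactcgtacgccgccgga

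All 5 genes matched a RefSeq promoter of that length, and both strands were searched for motifs. The TATAAA match of Aqp3, 29 bases before its start, was the only TATA match among the 5, against 13.6% of 32851 promoters with one. GATA letters were searched as AGATAA with its variant AGATAG and as TGATAA with its variant TGATAG, and 29.8% of promoters hold at least 1 of these. SOX letters (ACAAT) are in 31.0% of promoters, FOXA letters (TGTTTAC or its variant TATTTAC) in 6.55% and the core of a cyclic AMP response element (TGACG) in 20.8%. None of these letters was in any of the 5 windows, which says nothing about the factors. GC boxes (GGGCGG, in 35.7% of promoters) occurred 3 times in the Aqp5 window and once each in those of Aqp1 and Aqp3. The Aqp5 window held 46 CpG dinucleotides and that of Aqp11 held 27, against 21 for Aqp3, 8 for Aqp1, 6 for Aqp8 and a median of 7 over all promoters. No searched motif overlapped another, and the RefSeq start lies 133 bases from the deposited 5′ end of Aqp1 and 179 bases from that of Aqp5.

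Depth cannot be counted in FPKM files, but values of low genes put it between 0.398 (CiPSC line C3) and 1.59 (CiPSC line N4) relative to ESC replicate 1. The FPKM of a library summed to 543198 to 864945, and 11240 to 13982 genes reached 1 FPKM. Day 12, day 16 replicate 1, day 20 and day 26 stand apart, since each lists 446 loci with the status LOWDATA and the other 17 libraries list 0. All 5 aquaporins have status OK in every library. Summed over 8 XEN markers, intermediate cells stood at 911 to 1828 FPKM and XEN cells at 1745 to 3920, against 6.73 to 16.4 in pluripotent cells (CiPSC and ESC) and 42.1 to 91.0 in MEF. Of the eXEN sums, Lama1 alone gave 921 and 2587 FPKM. Sox17 went the other way, at 148 and 198 FPKM in eXEN against 330 to 599 in intermediate cells. The labelled states were borne by their defining markers: Gata4 was at 424 FPKM or more in XEN cells, Pou5f1 at 555 or more in pluripotent cells, and Col1a1 at 1467 and 4659 in MEF.

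Total aquaporin mRNA was low in MEF, high in intermediate and XEN cells and lower again in pluripotent cells. Aqp1 led it in MEF, Aqp8 in intermediate and XEN cells, and Aqp3 in pluripotent cells. The 12 genes summed to 668 to 1366 FPKM in the 6 intermediate libraries and to 304 to 770 in the 4 XEN libraries, against 31.7 to 183 in the 9 pluripotent libraries and 5.41 and 6.57 in MEF. Aqp8 held 65.0% to 85.3% of that sum in every intermediate library and 83.4% to 96.2% in every XEN library. Aqp3 held 85.7% to 97.3% in every CiPSC and ESC library. In MEF, Aqp1 held 50.2% and 59.9% and Aqp5 36.3% and 32.8% of a sum that was small. In bulk RNA, fewer cells with a transcript and less of it per cell cannot be told apart, here and in all values that follow.

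**Figure D1:**
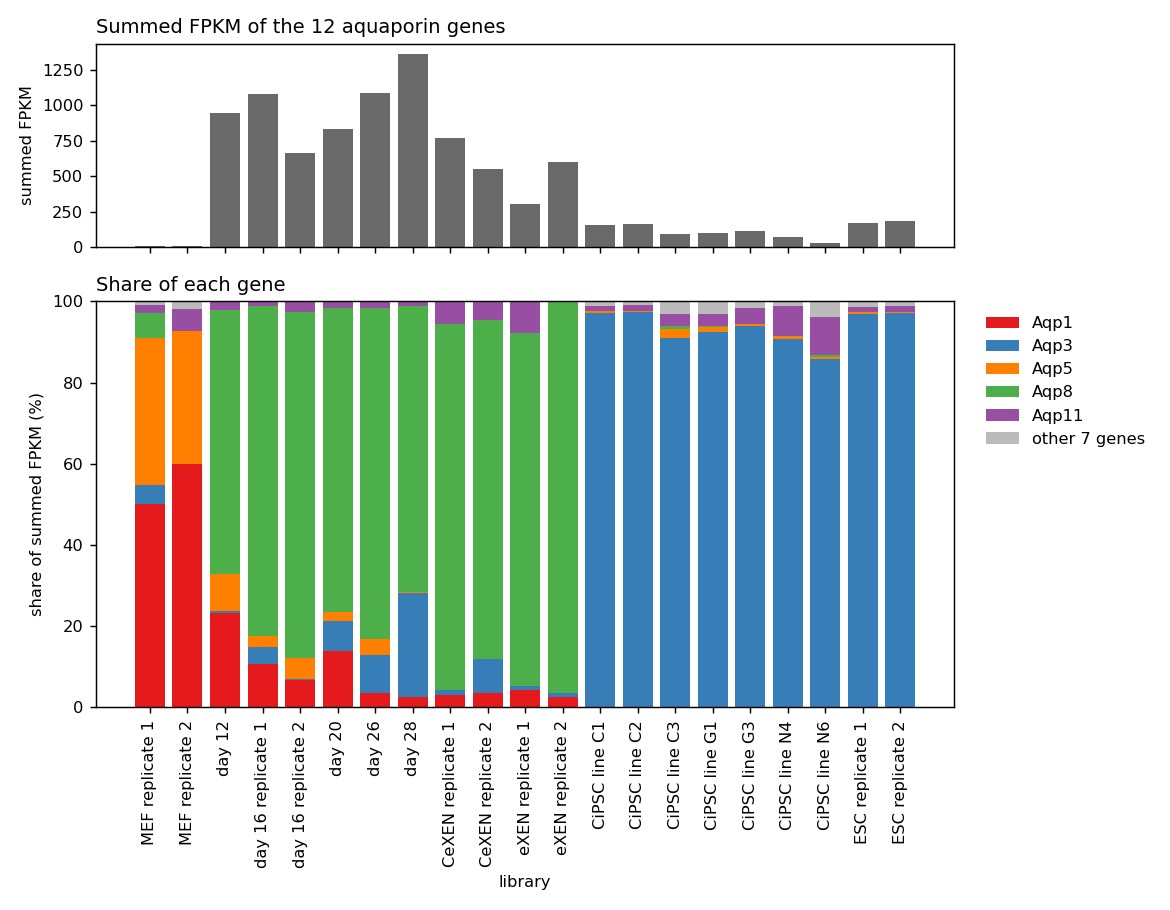
Summed FPKM of the 12 aquaporin genes (upper bars) and the share of each gene in that sum in percent (lower bars) for each of the 21 libraries. Aqp8 (green) leads from day 12 to eXEN, Aqp3 (blue) in all 9 CiPSC and ESC libraries, and Aqp1 (red) in both MEF libraries, where the sum is only 5.41 and 6.57 FPKM.

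Aqp8 (ENSMUSG00000030762, mm10 chromosome 7, positions 123462294 to 123468003, plus strand, 6 exons) encodes a channel for water, ammonia and hydrogen peroxide. Its mRNA was high in all intermediate and XEN libraries and near 0 elsewhere. Along the time course it was listed at 0.335 and 0 FPKM in MEF, 617 at day 12, 878 and 569.7 at day 16, 627 at day 20, 889 at day 26 and 963 at day 28. It stood at 693 and 460.4 FPKM in CeXEN and at 264 and 579 in eXEN. CiPSC lines ranged between 0 and 0.727 FPKM with a median of 0.0968, and ESC stood at 0.0785 and 0.0678. No intermediate or XEN library came near any MEF or pluripotent library, while intermediate and XEN levels overlapped each other, as did CeXEN and eXEN.

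Ranked by FPKM, Aqp8 was the 111th most abundant gene at day 28 and between the 136th and the 174th in the other intermediate libraries, and between the 139th and the 362nd in XEN cells. By group mean the order ran from day 28 over day 26, day 16, day 20, day 12, CeXEN and eXEN down to CiPSC, MEF and ESC. The 2 day 16 libraries span the single values of day 20 and day 12, the ranges of CeXEN and eXEN overlap, and the last 3 groups do not separate. On the scale of log2(FPKM + 1), which understates changes of low genes, Aqp8 at day 16 exceeded MEF by 9.26 ± 0.35 (SE) and eXEN exceeded ESC by 8.51 ± 0.35. CeXEN differed from eXEN by 0.53 ± 0.35 and day 16 from eXEN by 0.85 ± 0.35. CiPSC lay 9.26 ± 0.28 below day 16 (difference -9.26) and 0.11 ± 0.28 above ESC.

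Aqp3 (ENSMUSG00000028435, mm10 chromosome 4, positions 41092722 to 41098183, minus strand, 6 exons) encodes an aquaglyceroporin, a channel for water and glycerol typical of the basolateral side of epithelia. It was the only 1 of the 5 genes abundant in pluripotent cells, and in the intermediate series its lowest values were early and its highest late. It was at 0.243 and 0 FPKM in MEF, 4.76 at day 12, 45.6 and 2.62 at day 16, 62.1 at day 20, 101 at day 26 and 349 at day 28. CiPSC lines ranged between 27.1 (line N6) and 156 (line C2) FPKM with a median of 90.5, below 161 and 177 in ESC. XEN cells held less, 9.94 and 45.8 FPKM in CeXEN and 3.13 and 5.10 in eXEN. Day 28 exceeded every other library, and only CeXEN replicate 2 among XEN libraries reached the lowest CiPSC line.

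Aqp3 had the widest standard error of the 5 genes, and its day 16 replicates were far apart. Day 16 replicate 2 lay below the day 12 library and below both eXEN libraries. Within the 4 libraries that list LOWDATA loci the values were 4.76, 45.6, 62.1 and 101 FPKM at day 12, day 16, day 20 and day 26, and in the other 2 they were 2.62 and 349 at day 16 and day 28. The highest value is thus the last in both sets. Aqp3 at day 16 exceeded MEF by 3.54 ± 0.98 (SE) on the scale of log2(FPKM + 1), which became 1.70 without day 16 replicate 1. It was 5.08 ± 0.98 lower in eXEN than in ESC (difference -5.08), 2.17 ± 0.98 higher in CeXEN than in eXEN, and 1.37 ± 0.98 higher at day 16 than in eXEN, a sign that turned to -0.47 without day 16 replicate 1. CiPSC exceeded day 16 by 2.73 ± 0.79 (0.89 without day 16 replicate 2), and the difference of CiPSC from ESC was -0.98 ± 0.79.

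The summed markers of pluripotent cells, to which Dppa5a gave much, moved beside Aqp3 among the intermediate libraries. The 7 pluripotency markers summed to 27.9 FPKM at day 12, 195 and 5.66 at day 16, 166 at day 20, 631 at day 26 and 342 at day 28, against 2.01 and 2.15 in MEF and 4287 to 5381 in pluripotent cells. Of these sums, Dppa5a gave 13.6 FPKM at day 12, 131 and 0.727 at day 16, 97.2 at day 20, 558 at day 26 and 249 at day 28. Among intermediate libraries the highest values were 42.1 FPKM for Tdgf1, 39.1 for Esrrb, 10.6 for Sox2, 4.62 for Zfp42 and 2.79 for Nanog. Of these 7 markers, 4 averaged at least 1 FPKM at day 16 and all 7 at day 26 and day 28. Pou5f1 stood at 0.521 and 0.236 FPKM at day 16, and at 18.9 at day 26 and 6.23 at day 28. Day 28 held more Aqp3 but a lower sum of these markers than day 26, and their part in the Aqp3 values was not tested.

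By group mean, Aqp3 ran from day 28 over ESC, day 26, CiPSC, day 20, CeXEN, day 16, day 12 and eXEN down to MEF. The CiPSC range takes in day 26 and day 20, the ranges of CeXEN and day 16 overlap, and day 12 lies between the eXEN replicates.

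**Figure D2:**
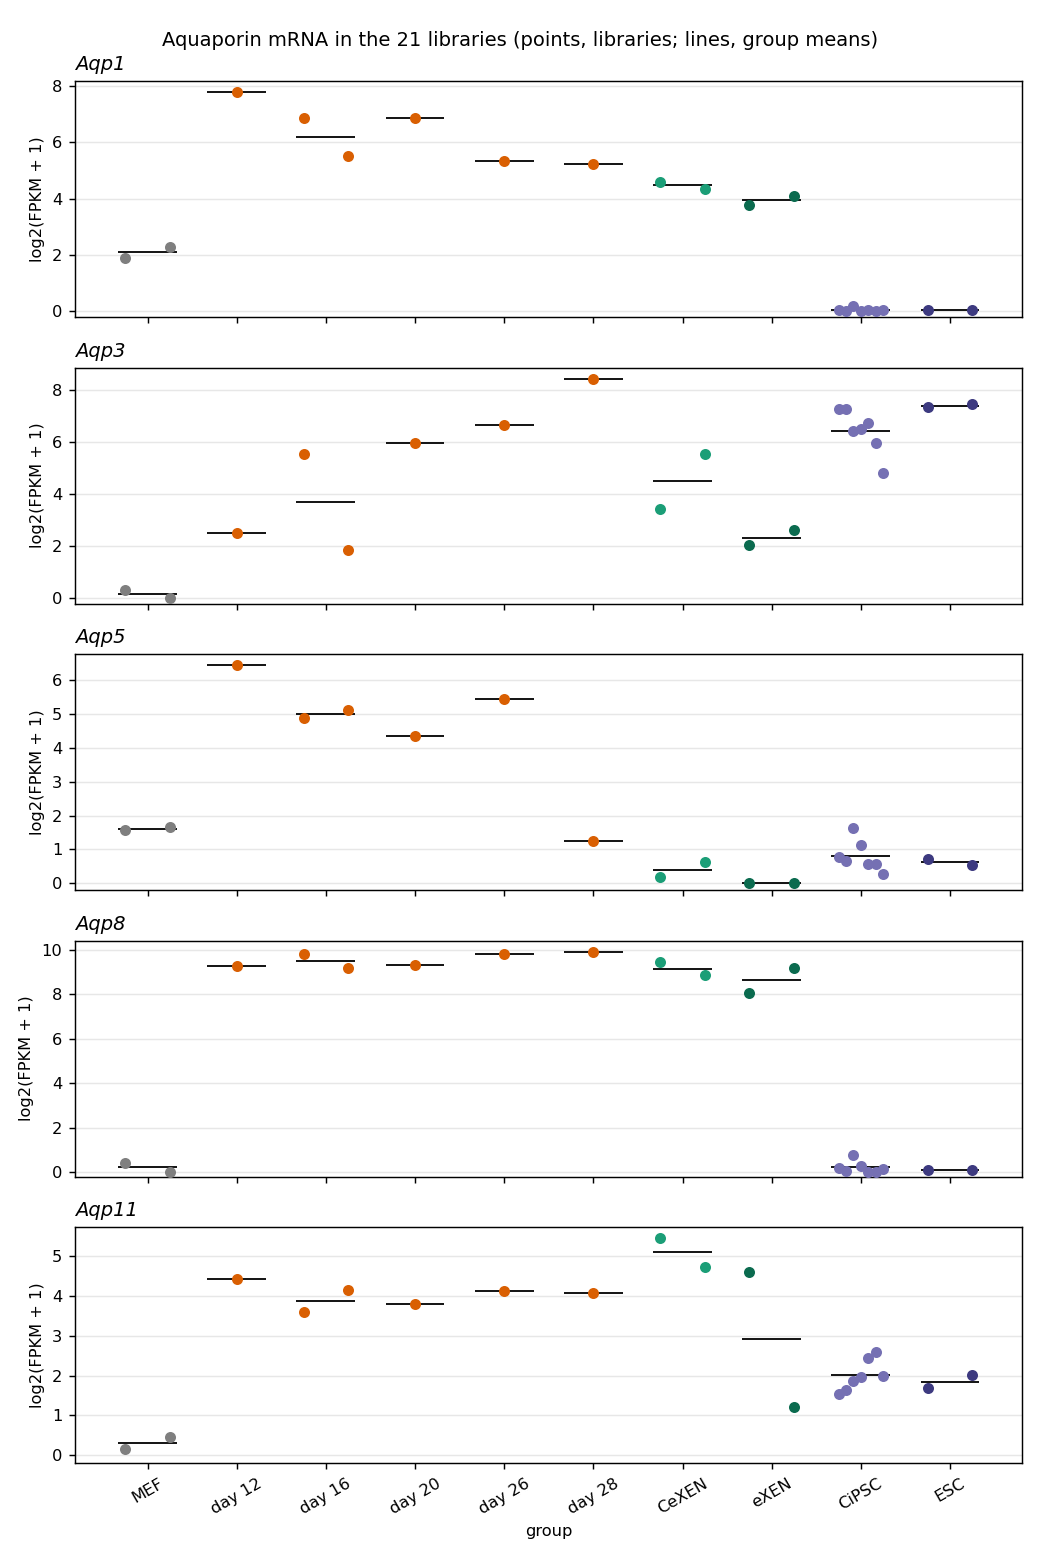
FPKM of the 5 aquaporins as log2(FPKM + 1) on the vertical axis for every library, by group; points are libraries and black lines group means. Aqp8 lies near 9 on this scale from day 12 to eXEN and near 0 elsewhere, Aqp3 is high in CiPSC and ESC, and the 2 eXEN points of Aqp11 lie far apart.

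Aqp1 (ENSMUSG00000004655, mm10 chromosome 6, positions 55336432 to 55348555, plus strand, 4 exons) encodes a water channel known from red blood cells, endothelium and kidney tubules. It was highest at day 12 and near absent from pluripotent cells. It was at 2.72 and 3.93 FPKM in MEF, 219.7 at day 12, 115 and 44.7 at day 16, 116 at day 20, 39.3 at day 26 and 36.5 at day 28. It stood at 23.3 and 19.5 FPKM in CeXEN and 12.7 and 16.2 in eXEN. CiPSC lines held 0 to 0.156 FPKM (median 0.0281) and ESC 0.0310 and 0.0267. All intermediate libraries lay above all XEN libraries, those above MEF, and MEF above every pluripotent library.

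Aqp1 has a single annotated transcript, which allows its fragments to be estimated from the deposited intervals. These came to 7544 fragments at day 12, 3977 and 1676 at day 16 and 106 and 141 in MEF, against 1 in each ESC library and at most 2 in a CiPSC line, with lines C2 and G1 listed at 0. The order of group means was day 12, day 20, day 16, day 26, day 28, CeXEN, eXEN, MEF, CiPSC and ESC. Day 20 lies just above day 16 replicate 1, day 26 and day 28 lie just below day 16 replicate 2, and CiPSC and ESC overlap. Aqp1 at day 16 exceeded MEF by 4.09 ± 0.32 and eXEN by 2.25 ± 0.32 (SE, log2 of FPKM + 1), and eXEN exceeded ESC by 3.90 ± 0.32. CeXEN exceeded eXEN by 0.54 ± 0.32, and CiPSC differed from day 16 by -6.13 ± 0.26 and from ESC by 0.02 ± 0.26.

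Other cells that express Aqp1 were checked by markers. The 8 endothelial markers summed to 36.8 FPKM at day 12, 16.3 and 7.57 at day 16 and 9.39 to 13.9 at day 20 to day 28, against 3.90 and 1.20 in MEF, with Cdh5 at 13.8 FPKM and Tek at 10.5 at day 12. The same markers summed to 11.6 and 8.52 FPKM in CeXEN, 3.36 and 27.4 in eXEN, 28.8 to 43.5 in CiPSC and 43.8 and 59.9 in ESC. In CiPSC and ESC, Aqp1 was near 0. Tek was highest in eXEN replicate 2, at 26.8 FPKM, and Pecam1 gave 23.5 to 54.4 FPKM of the sums in pluripotent cells. The 8 erythroid markers summed to 5.03 FPKM at day 12 and to 0.918 to 3.43 in the later intermediate libraries. The hemoglobin gene Hba-a1 gave 3.11 FPKM of the day 12 sum, against 0 and 0.231 in MEF and 0 to 1.23 in the later intermediate libraries. Slc4a1 was listed at 0 in every intermediate library, and Hbb-bs at 0 in all 21 libraries. The part of endothelial or erythroid RNA in the Aqp1 values was not tested.

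Aqp5 (ENSMUSG00000044217, mm10 chromosome 15, positions 99590849 to 99594829, plus strand, 4 exons) encodes the water channel of salivary, tear and airway glands. Among these 5 genes it alone separated intermediate cells from XEN cells with XEN near 0. It was at 1.96 and 2.16 FPKM in MEF, 86.4 at day 12, 28.7 and 33.8 at day 16, 19.3 at day 20, 42.3 at day 26 and 1.39 at day 28. CeXEN held 0.128 and 0.545 FPKM and both eXEN libraries were listed at 0. CiPSC lines held 0.207 to 2.08 FPKM (median 0.591) and ESC 0.640 and 0.442. The 5 intermediate libraries up to day 26 stood far above all others, whereas day 28 was below both MEF libraries.

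By group mean the order of Aqp5 was day 12, day 26, day 16, day 20, MEF, day 28, CiPSC, ESC, CeXEN and eXEN, of which CiPSC overlaps MEF, day 28, ESC and CeXEN. On the log2(FPKM + 1) scale Aqp5 at day 16 exceeded MEF by 3.39 ± 0.35 (SE), and CiPSC differed from day 16 by -4.21 ± 0.28 and from ESC by 0.18 ± 0.28. Aqp5 was listed at 0 in both eXEN libraries, so no size of difference from eXEN is read from these values. Aqp2 and Aqp6 flank Aqp5, 6302 and 6571 bases away, and neither exceeded 0.115 FPKM in an intermediate library.

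The 7 markers of stratified epithelium and glands also had their highest sum at day 12, at 83.6 FPKM. They summed to 36.9 and 23.5 at day 16, 14.2 at day 20, 13.4 at day 26 and 10.8 at day 28, against 1.52 and 2.34 in MEF and 0.773 to 4.03 in XEN cells. The lactoferrin gene Ltf gave 42.9 FPKM of the day 12 sum, and was at 21.9 and 0.280 at day 16. Muc1 was at 13.9 FPKM at day 12 and at 5.62 and 0.158 at day 16. Prom1 was at 18.7 FPKM at day 12 and at 7.25 and 20.2 at day 16. Krt10 and Krt5 were also higher in a day 16 library than at day 12. The basal keratin gene Krt14 stood at 6.28 FPKM at day 12, against 0.264 and 0.746 in MEF. The basal markers Krt5 and Trp63 stayed at or under 0.881 and 0.299 FPKM in intermediate cells. Fibroblast markers also moved beside Aqp5 among the intermediate libraries, except at day 26. Aqp5 was then at 42.3 FPKM, above 28.7 and 33.8 at day 16, whereas the fibroblast sum was below both day 16 libraries. The 7 fibroblast markers summed to 815 FPKM at day 12, 214 and 469 at day 16 and 74.6 at day 20. They summed to 129.6 at day 26 and 9.92 at day 28, but to 2831 and 10391 in MEF, where Aqp5 was low. Of these, Col1a1 stood at 133 FPKM at day 12, 25.8 and 91.2 at day 16 and 6.19 at day 20. It was at 14.7 at day 26 and 1.03 at day 28, against 1467 and 4659 in MEF. Only Twist2 exceeded both MEF libraries at day 12. It stood at 115 FPKM there, 38.5 and 78.2 at day 16, 19.1 at day 20 and 32.6 at day 26. At day 28 it was at 1.44, against 60.3 and 52.3 in MEF. The part of either marker list in the Aqp5 values was not tested.

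**Figure D3:**
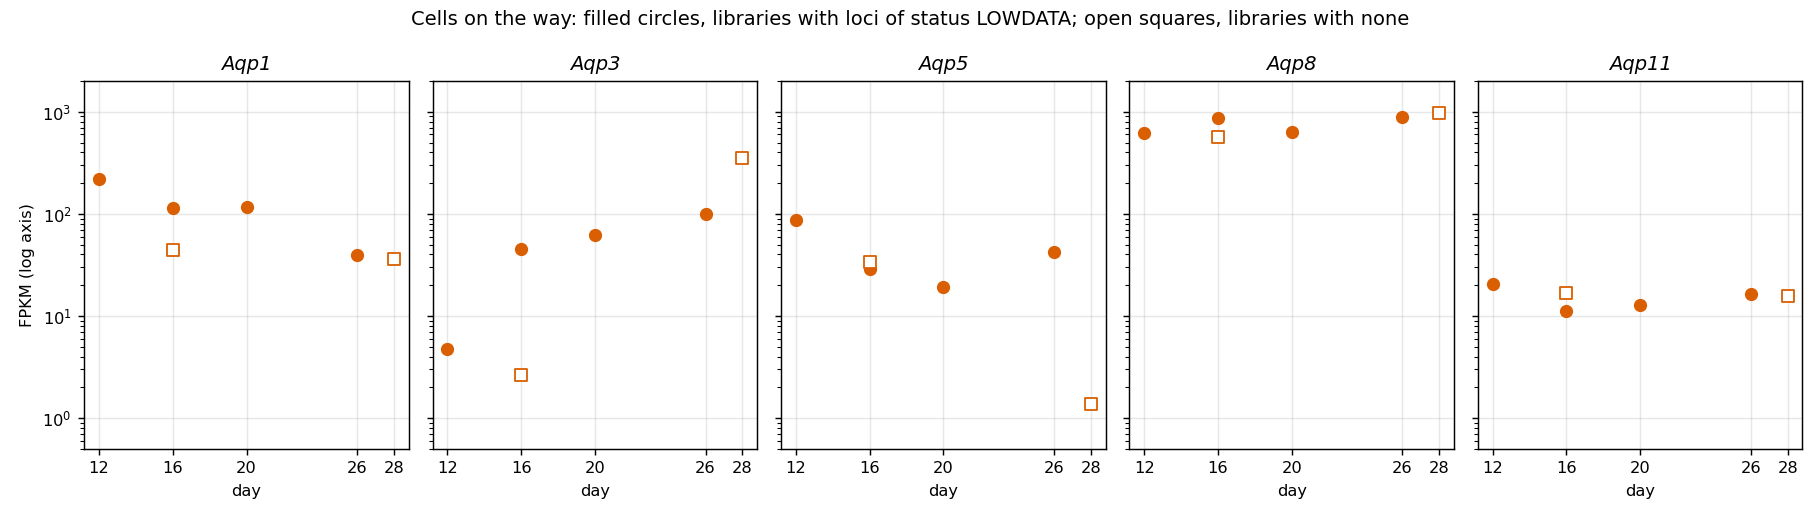
FPKM of each aquaporin (log axis) against day for the 6 intermediate libraries; filled circles are the 4 libraries that list 446 LOWDATA loci and open squares the 2 that list none. Aqp3 spans 2.62 to 349 FPKM and Aqp5 1.39 to 86.4, while Aqp8 stays between 569.7 and 963 and Aqp11 between 11.1 and 20.7.

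Aqp11 (ENSMUSG00000042797, mm10 chromosome 7, positions 97726379 to 97738247, minus strand, 3 exons) encodes a channel of the endoplasmic reticulum, and mice without it develop cystic kidneys. It was moderate in intermediate cells, highest in CeXEN and low but present in pluripotent cells. It was at 0.109 and 0.362 FPKM in MEF, 20.7 at day 12, 11.1 and 16.7 at day 16, 12.9 at day 20, 16.4 at day 26 and 15.7 at day 28. CeXEN held 43.3 and 25.7 FPKM, and eXEN 23.4 (stage 1 medium) and 1.32 (conventional medium). CiPSC lines held 1.92 to 5.02 FPKM (median 2.91) and ESC 2.21 and 3.01. Every intermediate library exceeded every MEF and pluripotent library, and eXEN replicate 2 lay below all pluripotent libraries.

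The intermediate values of Aqp11 spread by a factor of 1.87, more than those of Aqp8 (1.69) and less than those of Aqp1 (6.02), Aqp5 (62.4) and Aqp3 (133). Its order by group mean was CeXEN, day 12, day 26, day 28, day 16, day 20, eXEN, CiPSC, ESC and MEF, where day 16 spans day 20, day 28 and day 26, and CiPSC and ESC overlap. Aqp11 at day 16 exceeded MEF by 3.57 ± 0.73 (SE, log2 of FPKM + 1) and CiPSC differed from day 16 by -1.86 ± 0.58 and from ESC by 0.16 ± 0.58. Differences from eXEN rest on 1 of its libraries. The difference of eXEN from ESC was 1.07 ± 0.73, but 2.76 without eXEN replicate 2 and -0.63 without replicate 1. CeXEN exceeded eXEN by 2.19 ± 0.73 (0.50 without eXEN replicate 2), and day 16 exceeded eXEN by 0.96 ± 0.73 (-0.74 without eXEN replicate 2).

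Counts of members whose groups do not overlap are given beside the share of the 16650 tested genes that do the same. Since the members were chosen on these levels, nothing is read from the comparison. At day 16 all 5 lay above MEF, where 39.2% of genes lay higher and 17.7% lower. Over all 6 intermediate libraries, Aqp1, Aqp3, Aqp8 and Aqp11 lay above MEF (29.8% of genes higher, 12.2% lower). Aqp1 and Aqp5 lay above all 4 XEN libraries (15.7% higher, 3.77% lower). In XEN cells, Aqp1 and Aqp8 lay above all pluripotent libraries (11.3% higher, 24.7% lower).

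Among the replicated groups, Aqp1, Aqp3, Aqp5 and Aqp11 lay higher in CeXEN than in eXEN (25.2% of genes higher, 17.5% lower), and Aqp1 and Aqp5 higher at day 16 than in eXEN (40.8% higher, 15.9% lower). In eXEN, Aqp1 and Aqp8 lay above ESC (23.5% of genes higher), and Aqp3 and Aqp5 below it (47.1% lower). In CiPSC, Aqp1, Aqp5, Aqp8 and Aqp11 lay below both day 16 libraries (28.4% of genes lower, 25.8% higher), while Aqp3 overlapped. Between the pluripotent groups, Aqp3 lay lower in all 7 CiPSC lines than in ESC (7.68% of genes lower, 6.44% higher), and the other 4 overlapped. These comparisons share groups, so they are not independent of each other.

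The other 7 family members were near 0 in most libraries. Aqp12 was listed at 0 in all 21, Aqp2 reached at most 0.248 FPKM, Aqp4 0.0693 and Aqp7, the aquaglyceroporin 44583 bases from Aqp3, 0.258. Aqp9, a further aquaglyceroporin, was the only 1 of these 7 to pass the filter on low values. It stood between 0.0769 and 1.79 FPKM (median 1.07) in CiPSC and at 1.08 and 0.927 in ESC, and at no more than 0.0424 in any other library. It passed that filter only through pluripotent libraries, so no test of it is given. Aqp6 (0.0404 to 0.705 FPKM) and the lens aquaporin Mip (0.385 to 1.07 FPKM) were found in all 9 pluripotent libraries and listed at 0 in the other 12. Aqp9 and Mip overlap noncoding genes on the opposite strand, and whether the counting used strand is not given in the sources used here.

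Group means of the 5 genes on the log2(FPKM + 1) scale were compared over the 10 groups as a description. Aqp8 correlated with Aqp1 at 0.896 and with Aqp11 at 0.884, Aqp1 with Aqp11 at 0.749, and Aqp5 with Aqp1 at 0.727. Aqp3 stood apart, between -0.14 and 0.29 with the other 4. Among 10988 genes with a group mean of at least 5 FPKM in some group, the most like Aqp8 were Hs3st1, a heparan sulfate sulfotransferase (0.998), and Sox17, an endoderm transcription factor (0.996). Both also led over the 21 single libraries, at 0.996 and 0.994, but neither was among the 3 nearest by Spearman correlation over the groups (Sap30l, Usp27x and Rtcb). On either scale these are likenesses of level only. Nearest to Aqp1 were the noncoding RNA Airn (0.986), Trappc1 (0.983) and Rusc1 (0.981). Nearest to Aqp5 were the xanthine dehydrogenase gene Xdh (0.988), the bradykinin receptor gene Bdkrb2 (0.986) and the cytokine gene Tnfsf9 (0.985). Nearest to Aqp11 were Tspan14 (0.977), the Wnt feedback inhibitor Axin2 (0.976) and the sodium pump subunit Atp1b1 (0.973), and nearest to Aqp3 were Ribc1 (0.971), Ddx17 (0.960) and Fastkd1 (0.955). All these values share the same libraries and their depth. Over single libraries 1 of the 3 was again among the nearest for Aqp1, Aqp5 and Aqp11, and none for Aqp3. By Spearman correlation over the groups, 1 of the 3 was again among the nearest for Aqp5 and 0 for the other members.

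Genes of processes in which aquaporins take part were counted from 4 lists. The lists were chosen with earlier results of these data known, so their counts beside the shares over all genes are descriptions. They were tested with limma across 16650 genes, with Benjamini-Hochberg adjustment, and called at an adjusted p under 0.05 and a log2 change of at least 1. The products of epithelial ion transport genes set the salt gradients that water follows. At day 16 against MEF, 12 of 20 tested rose and 0 fell (0 at an unadjusted p under 0.05), where 13.3% of all genes were called higher and 7.41% lower. Kcnq1, counted among the 20, passed the filter on low values only through intermediate libraries. It was at 7.61 FPKM at day 12, 2.49 in day 16 replicate 1 and 2.64 at day 20, so no call of it is read in any comparison. The list's median was 1.29, against 0.22 for all genes. Without day 16 replicate 1, 7 rose. In a limma fit of only these 2 groups no gene of any list was called, nor any of the 16650 (4062 at an unadjusted p under 0.05), and the same held for CeXEN against eXEN (2184).

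The largest of these changes were in the carbonic anhydrases, enzymes of bicarbonate handling. Car4 was at 230.0 and 90.8 FPKM at day 16, against 0.174 and 0 in MEF. Both day 16 libraries were far above both MEF libraries, and the log2 change was 7.07 ± 0.80 (SE, limma adjusted p = 1.82e-05). Car2 was at 70.2 and 57.8 FPKM at day 16 and 4.28 and 0.389 in MEF, again without overlap (4.58 ± 0.55, limma adjusted p = 3.26e-05). The sodium pump subunit Atp1b1, which is also among the genes nearest to Aqp11, was at 182 and 239 FPKM at day 16, against 37.8 and 6.74 in MEF (3.60 ± 0.66, limma adjusted p = 0.00105).

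In CiPSC against day 16, 13 of 20 epithelial ion transport genes fell and 0 rose (2 at an unadjusted p under 0.05), where 17% of genes were called lower and 13% higher. The list's median was -1.40, against -0.02 for all genes. The same day 16 libraries enter the comparison with MEF, so the list counts of these comparisons are not independent. Car4 fell by 5.26 ± 0.64 (limma adjusted p = 1.42e-05) to 0.597 to 6.48 FPKM in the 7 lines, and the bicarbonate cotransporter Slc4a4 fell by 2.64 ± 0.32 (limma adjusted p = 1.28e-05). In eXEN against ESC, 5 rose, among them Fxyd3, Slc4a2, Clcn2 and Car12, and 0 fell (1 at an unadjusted p under 0.05), with 9.78% of genes called higher and 18.4% lower, and a median of 0.03 against -0.26; in a fit of only these groups 1 was called. Car12, a carbonic anhydrase of the cell surface, was at 27.4 and 38.8 FPKM in eXEN and 1.01 and 0.527 in ESC (4.26 ± 0.36, limma adjusted p = 8.46e-07).

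In CeXEN against eXEN, Slc4a4, Car2 and Car4 rose and the cotransporter Slc12a2 fell (4.01% and 2.46% of all genes), with a median of 0.57 against 0.06, and only 1 was called without CeXEN replicate 2. At day 16 against eXEN, 6 rose and 1 fell (14% and 3.17% of all genes), with a median of 0.57 against 0.23, and 4 were called without day 16 replicate 1, with 1 left when only these groups were fitted. Car12 was the gene lower at day 16, at 4.85 and 3.08 FPKM against 27.4 and 38.8 in eXEN (-2.78 ± 0.36, limma adjusted p = 8.48e-05). In CiPSC against ESC, 0 of 20 were called by limma and 0 had an unadjusted p under 0.05, beside 6 genes called higher (0.036%), 4 called lower (0.024%) and 1412 at an unadjusted p under 0.05 among all genes.

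**Figure D4:**
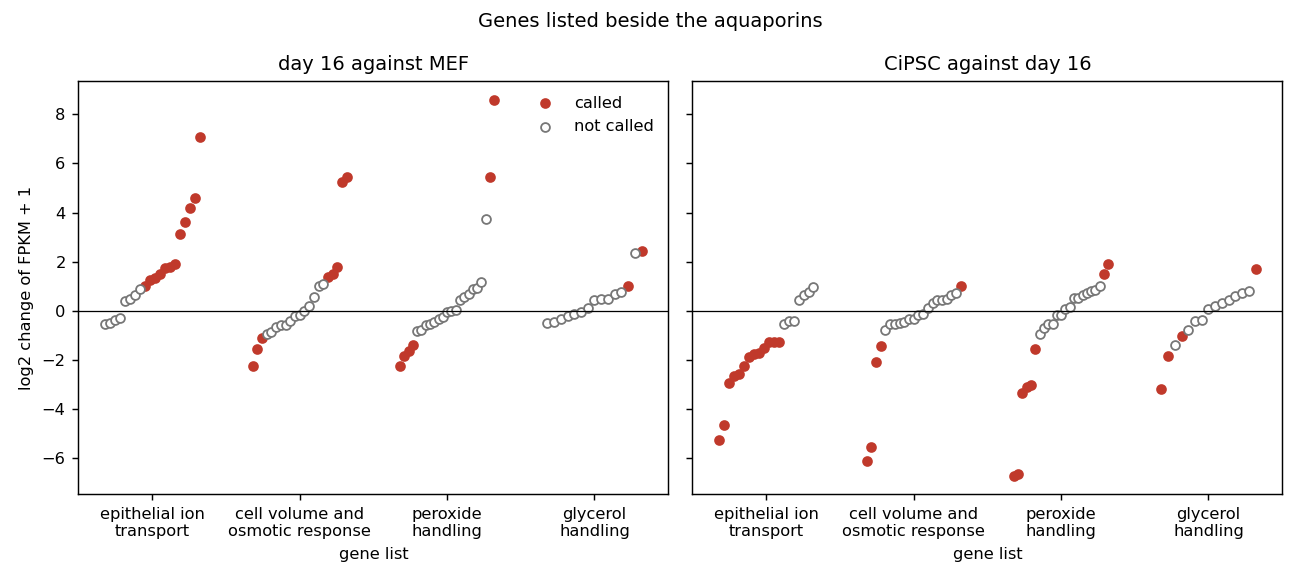
Fitted log2 changes of FPKM + 1 for the tested genes of 4 lists, day 16 against MEF on the left and CiPSC against day 16 on the right; red points were called and open points were not. Epithelial ion transport has 12 called genes above 0 on the left and 13 below 0 on the right. Both panels use the same day 16 libraries, so they are not independent.

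Among cell volume and osmotic response genes, calls are again to be read against 13.3% of all genes higher and 7.41% lower at day 16 against MEF. Of 21 tested, Wnk4, Sgk1, Slc12a7, Clcn3 and Slc14a1 rose and Nfat5, Slc6a9 and Lrrc8a fell at day 16 against MEF (median -0.17 against 0.22 for all genes), and 4 rose and 0 fell without day 16 replicate 1. The kinase Wnk4, a regulator of salt cotransporters, was at 55.7 and 70.3 FPKM at day 16 and 0.309 and 0.639 in MEF (5.44 ± 0.51 SE, limma adjusted p = 3.15e-06). The urea transporter Slc14a1 was at 94.2 and 48.2 FPKM at day 16, against 0.572 and 1.10 in MEF (5.23 ± 0.60, limma adjusted p = 2.25e-05), and was listed at 0 in all 7 CiPSC lines. In CiPSC against day 16, Clcn3 rose and Lrrc8c, Wnk4, Stk39 and Slc14a1 fell (median -0.32, with 13% of all genes higher and 17% lower). Wnk4 was also higher in CeXEN than in eXEN, at 83.8 and 95.5 against 17.6 and 2.74 FPKM (3.44 ± 0.51, limma adjusted p = 0.000816).

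In eXEN against ESC, Slc38a2, Lrrc8c, Wnk4, Stk39 and Slc12a4 rose and Slc6a6, Lrrc8d and Sgk1 fell (median -0.13, with 9.78% of all genes higher and 18.4% lower), of which 3 rose and 2 fell without ESC replicate 2 and 3 were called in a fit of only these groups. In CeXEN against eXEN, Slc6a6, Lrrc8d, Wnk4 and Slc14a1 rose and Stk39 fell (median -0.03, with 4.01% of all genes higher and 2.46% lower), and 3 rose and 0 fell without CeXEN replicate 2 or without eXEN replicate 2. At day 16 against eXEN, 6 rose and Slc12a4 fell (median 0.14, with 14% of all genes higher and 3.17% lower), and 4 were called without day 16 replicate 1 or without eXEN replicate 2, and 0 by limma when only these groups were fitted.

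Glycerol handling genes act on the solute that aquaglyceroporins pass. Of 15 tested, the triglyceride synthesis genes Dgat1 and Dgat2 rose and 0 fell at day 16 against MEF (median 0.43, and 0 fell at an unadjusted p under 0.05), where 13.3% of all genes were called higher and 7.41% lower, and limma called 0 without day 16 replicate 1 and 1 after quantile normalization or median-of-ratios scaling. In CiPSC against day 16, where Aqp3 differed by 2.73, Gpd2 rose and Agpat6, Mgll and Dgat2 fell (median 0.09, with 13% of all genes higher and 17% lower). The monoglyceride lipase Mgll, which releases glycerol, fell by 3.20 ± 0.35 (limma adjusted p = 4.75e-06), and the glycerol-3-phosphate dehydrogenase Gpd2 rose by 1.68 ± 0.27 (limma adjusted p = 0.00014). In eXEN against ESC, Gpam, Agpat6 and Lpin1 rose and Gpd1l fell (median -0.21, with 9.78% of all genes higher and 18.4% lower), and Gpam, an enzyme of glycerolipid synthesis, rose by 1.40 ± 0.23 (limma adjusted p = 0.00030). In CeXEN against eXEN, Mgll rose (4.01% of all genes higher, and 0 of the list called by limma without CeXEN replicate 2), and at day 16 against eXEN Mgll rose and Lpin1 fell (14% of all genes higher and 3.17% lower, with 4 of the list called without eXEN replicate 1 and after either other scaling, and 0 by limma when only these groups were fitted).

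Peroxide handling genes, listed because Aqp3 and Aqp8 pass hydrogen peroxide, are hard to read in the intermediate cells. In the 4 libraries with LOWDATA loci, the thioredoxin reductase gene Txnrd1 was at 14928 to 18930 FPKM and the glutathione peroxidase gene Gpx3 at 6351 to 16617. In day 16 replicate 2 and day 28 they were at 93.0 and 45.3 and at 65.1 and 82.6. Of 23 tested, Gpx2 and Gpx3 rose and Gpx7, Gpx8, Sod3 and Nox4 fell at day 16 against MEF (median -0.07, with 13.3% of all genes higher and 7.41% lower), and 2 rose and 1 fell without day 16 replicate 1. At day 16 against eXEN, Gpx2, Gpx7, Txnrd1, Glrx and Srxn1 rose and Cat fell (median 0.78, with 14% of all genes higher and 3.17% lower, and 1 of the list called when only these groups were fitted), and in CiPSC against day 16, Prdx1 and Sod2 rose and 6 fell (median -0.16, with 13% of all genes higher and 17% lower). The part of the processing status in these counts was not tested.

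In eXEN against ESC, Prdx4, Gpx3 and Gpx8 rose and 6 peroxide genes fell (median -0.37, with 9.78% of all genes higher and 18.4% lower), and 0 rose and 5 fell without ESC replicate 2. Gpx7, a peroxidase of the endoplasmic reticulum, was at 0 and 0.0523 FPKM in eXEN, against 10.5 and 14.8 in ESC (-3.72 ± 0.45, limma adjusted p = 2.36e-05). The peroxiredoxin Prdx1 averaged 208 ± 74.1 FPKM in eXEN and 768 ± 0.868 in ESC (SD, n = 2 each), a log2 change of -1.92 ± 0.26 (limma adjusted p = 6.84e-05). In CeXEN against eXEN, 0 of 23 were called by limma and 3 had an unadjusted p under 0.05. In CiPSC against ESC, 0 genes of the volume, glycerol and peroxide lists were called by limma, and 0, 0 and 1 had an unadjusted p under 0.05.

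The split of calls over all genes into higher and lower moved with scaling in 4 comparisons. At day 16 against MEF, 2219 genes were called higher and 1233 lower, and 1558 and 1758 after quantile normalization or 1575 and 1762 after median-of-ratios scaling. In eXEN against ESC they were 1628 and 3057, and 2347 and 2130 or 2073 and 2489 after these scalings. In CeXEN against eXEN they were 668 and 409, and 488 and 492 after quantile normalization or 683 and 504 after median-of-ratios scaling. At day 16 against eXEN they were 2326 and 527, and 1349 and 1189 or 1947 and 875. The median gene differed by 0.22, -0.26 and 0.23 at day 16 against MEF, in eXEN against ESC and at day 16 against eXEN. No aquaporin difference changed sign under either scaling.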

How the data were processed

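RNA from 21 mouse libraries was measured by sequencing. Deposited values are FPKM per gene. TopHat, Cufflinks and mm10 are named in the submitters' processing notes, and their versions are not given in the sources used here. The 43496 loci per file hold 43438 gene IDs, and loci of 1 ID were added. Genes at FPKM 1 or more in 2 or more libraries (16650) were tested on log2(FPKM + 1) with limma 3.58.1 (R 4.3.3, intensity trend), 1 coefficient per group over all libraries (11 residual degrees of freedom), and Benjamini-Hochberg adjustment within each of 6 comparisons. In these p-values the spread of all groups is pooled, mostly that of the CiPSC lines. All 5 members passed that filter. Named were all members and other family genes, the 3 genes nearest to each member, and called list genes among the 4 largest changes per list and comparison. Some results under these rules are not reported here. Members and lists were chosen with earlier results of these data known. Depth was estimated from the Cufflinks intervals of low genes. Coordinates count from 1, and gene distances come from GENCODE vM21. Alternatives covered pseudocount 0.1, filters, scaling, the fit, a replicate block and each library left out. The fit was tested on simulated data. Other tools were Python 3.11.15, numpy 2.4.6, pandas 2.3.3 and matplotlib 3.10.9.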

Additional observations from a re-analysis of the deposited data

Results flagged for a closer look

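CiPSC line C3 stood apart from the other 6 lines in 2 genes. Its Aqp1 value of 0.156 FPKM was the highest of the 7 lines. On the log2(FPKM + 1) scale, the gap to the next line took 0.676 of the range. Its Aqp8 value of 0.727 FPKM was also the highest, with a gap of 0.633 of the range on that scale. Both exceed the critical value of 0.568 for 7 values, which chance passes in about 1 in 20 groups, and 10 ends were looked at. Line C3 had the lowest estimated depth, 0.398 of ESC replicate 1, and its Aqp1 value rests on 2 estimated fragments. The deposited interval of its Aqp8 value runs from 0 to 1.54 FPKM.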

How the results depend on the processing

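Of the differences of the 5 aquaporins under all alternatives, 261 kept their direction within the spread of replicates, 19 moved further and 5 reversed. The reversals all came from leaving out 1 library. Aqp11 in eXEN against ESC was -0.63 without eXEN replicate 1. Aqp8 in CeXEN against eXEN ranged from -0.035 (without eXEN replicate 1) to 1.09, Aqp3 at day 16 against eXEN from -0.47 (without day 16 replicate 1) to 3.21, Aqp11 there from -0.74 (without eXEN replicate 2) to 2.65, and Aqp1 in CiPSC against ESC from -0.0092 (without line C3) to 0.026. Txnrd1 in CiPSC against day 16 ranged from -7.05 to 0.32 (without day 16 replicate 1). With pseudocount 0.1, which enlarges changes of low genes by construction, day 16 against MEF gave 5.91 for Aqp3, 3.86 for Aqp5, 11.73 for Aqp8 and 5.46 for Aqp11, and eXEN against ESC 6.81 for Aqp1, -2.66 for Aqp5 and 11.14 for Aqp8. All values of Aqp5 against eXEN, listed at 0, are set by the pseudocount and are no measure of size. Quantile normalization gave 3.25 for both Aqp5 and Aqp11 at day 16 against MEF and -0.43 for Aqp5 in eXEN against ESC, and median-of-ratios scaling gave 3.13 for Aqp5 at day 16 against MEF. With 1 library left out, day 16 against MEF ranged from 3.42 to 4.76 (Aqp1), 1.70 to 5.39 (Aqp3), 3.28 to 3.51 (Aqp5), 8.95 to 9.57 (Aqp8) and 3.30 to 3.85 (Aqp11), and eXEN against ESC from 3.74 to 4.07, -5.36 to -4.80, -0.71 to -0.53, 7.95 to 9.08 and -0.63 to 2.76 in that order. Where 1 library remained in a group, it was taken to vary as the rest do. Calls over all genes ranged from 2490 (without day 16 replicate 1) to 3688 for day 16 against MEF, 3622 to 4799 for eXEN against ESC, 550 (without CeXEN replicate 2) to 1847 (without CeXEN replicate 1) for CeXEN against eXEN, 1928 to 3135 for day 16 against eXEN, 4018 to 5080 for CiPSC against day 16 and 9 to 51 (without ESC replicate 1) for CiPSC against ESC. A fit of only the groups compared, with fewer residual degrees of freedom, called 0 genes by limma for day 16 against MEF (4062 at an unadjusted p under 0.05), 0 for CeXEN against eXEN (2184), 533 for day 16 against eXEN and 26 for CiPSC against ESC, the last also 5 with pseudocount 0.1 and 5 with a filter at FPKM 5, for which the cause was not tested. Replicate numbers are not said to mark a shared source, and deviations of same-numbered libraries correlated at -0.099 to -0.054 in 3 comparisons and -0.12 at day 16 against eXEN. A replicate block gave 1972 calls for day 16 against MEF, 3741 for eXEN against ESC, 200 for CeXEN against eXEN and 1482 for day 16 against eXEN (1664 with numbers crossed, chosen after seeing the data). In these balanced comparisons a block cannot move a difference, only its error. No paired analysis was possible for CiPSC because its lines carry no shared numbers. List counts and list genes were run under the same alternatives, also chosen after seeing the data. Of the differences of called list genes, counted per gene, comparison and alternative, 784 kept their call, 119 lost it and 1 reversed. FPKM under about 0.1 rests on a few fragments, so levels of Aqp1 and Aqp8 in pluripotent cells are bounded by depth.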
